A study of Mus musculus with 12 samples.

Results

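Mitochondria make ATP by oxidative phosphorylation. Complex I takes electrons from NADH, complex III passes them from ubiquinol to cytochrome c, complex IV hands them to oxygen, and complex V, the ATP synthase, uses the proton gradient built by the other complexes to form ATP. Most subunits are encoded in the nucleus, translated in the cytosol and imported, and they must be matched with the few that mitochondrial DNA encodes. Macrophages alter the balance between respiration and glycolysis when they are activated or loaded with lipid.

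The genes described here are the nuclear-encoded subunits of complexes I, III, IV and V with the assembly factors and relatives that share their names. They were chosen as the rows whose symbol starts with Nduf, Uqcr, Atp5 or Cox4 to Cox8, that are not named as pseudogenes, and that reached 1 TPM (a length-corrected share of all transcripts, scaled to the same total in every library) in at least 3 of 12 libraries. This rule gave 83 of 88 rows with such names, among 24279 rows in all. They comprise 7 core subunits of complex I, which carry its flavin and iron-sulphur clusters, 29 accessory subunits and 7 assembly factors of complex I (Ndufaf1 to Ndufaf7), 8 subunits of complex III, 13 of complex IV, 15 of complex V, and 4 genes that carry a subunit's name but encode other proteins. Those 4 are Cox7a2l, a factor of respiratory supercomplexes, Ndufa4l2, a hypoxia-induced relative of Ndufa4, Atp5s, known as coupling factor B, and Atp5sl. Ndufa4 was counted with complex IV, where its protein resides. Complex II carries other names and is given with the related lists further on, and the subunits encoded by mitochondrial DNA were not analysed here.

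The libraries were made from cultured peritoneal macrophages of mice without Pim1, a serine/threonine kinase, (Pim1-/-) and of wild-type (WT) mice. There were 4 groups of 3 libraries: Pim1-/- with oxidized low-density lipoprotein (oxLDL, 20 µg/mL for 8 h), WT with oxLDL, Pim1-/- with PBS, and WT with PBS. The labels give no age, no sex and no detail of the Pim1 allele. Pim1 itself stood at 12.3 to 47.8 TPM in Pim1-/- oxLDL and 56.0 to 365 TPM in WT oxLDL, and at 10.2 to 30.6 TPM in Pim1-/- PBS and 68.5 to 93.1 TPM in WT PBS. Every Pim1-/- library was thus below every WT library of the same treatment.

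A few libraries stood apart from their groups. The library WT PBS 3 listed 2372 of the 12594 tested genes at 0, against 167 to 524 in the other 11 libraries, and 9 of the 83 genes described here were among them. The summed level of 5 markers of T and NK cells was 465 TPM in that library and 2.11 to 14.8 TPM elsewhere. Of these markers Nkg7 reached 333 TPM and Cd3d 61.5 TPM in WT PBS 3, whereas Gzma was listed at 0. B cell markers summed to 37.8 TPM there and to 3.18 to 11.1 TPM elsewhere. Macrophage markers summed to 12000 to 24300 TPM over the 12 libraries. Most of that was Lyz2 (8980 to 21100 TPM), followed by Cd68 (967 to 3840 TPM). The other macrophage markers were lower and varied more widely. Adgre1 ran from 63.9 to 821 TPM, Csf1r from 98.5 to 777 TPM and Itgam from 78.7 to 508 TPM. Icam2 ran from 2.18 to 27.8 TPM and Gata6 from 0.253 to 21.9 TPM, and Timd4 reached at most 1.36 TPM. The library WT oxLDL 2 was more like Pim1-/- oxLDL 1 (Spearman 0.977 across tested genes) than like any library of its own group, and held Pim1 at 56.0 TPM, beside 47.8 TPM in Pim1-/- oxLDL 1. The part of these differences in the results was not tested, so the counts of called genes are also given without both libraries.

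Of the 83 genes, 70 reached 1 TPM in all 12 libraries, and none passed the threshold through 1 group only. The 5 rows below it were Cox4i2, Cox6a2, Cox7b2, Cox8b and Cox8c, of which Cox7b2 and Cox8c were listed at 0 in every library. The nearest row below was Cox8b, an isoform of heart and skeletal muscle, whose third-highest value was 0.929 TPM. The nearest gene above was Cox6b2, an isoform known from testis, with a third-highest value of 1.51 TPM.

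The isoforms of the subunits that exist in tissue variants followed the common, non-muscle pattern. TPM are corrected for transcript length, which allows a rough comparison of different genes. Short and long transcripts still shifted against each other between libraries, as described below. Cox4i1, the main isoform of the regulatory subunit 4 of cytochrome c oxidase, averaged 482 TPM over the 12 libraries, and Cox4i2, its lung and hypoxia isoform, did not exceed 0.661 TPM in any library. Cox6a1, the general isoform of subunit 6a, averaged 290 TPM, and the muscle isoform Cox6a2 reached at most 1.27 TPM. Cox7a2 averaged 117 TPM, whereas the muscle isoform Cox7a1 averaged 2.27 TPM and was listed at 0 in 3 libraries. Cox6b1 averaged 198 TPM and Cox6b2 0.898 TPM, and Cox8a averaged 276 TPM while Cox8b reached at most 3.15 TPM. Ndufa4 averaged 182 TPM, and Ndufa4l2 averaged 2.99 TPM with 0 in 3 libraries. The 3 genes for the membrane ring subunit c of the ATP synthase, which yield the same mature protein, were all present, at means of 122 TPM for Atp5g1, 184 TPM for Atp5g2 and 177 TPM for Atp5g3.

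Within each complex the most abundant genes were, by mean TPM over the 12 libraries, Ndufa1 (198) and Ndufa3 (138) in complex I, Uqcrc1 (189) and Uqcrq (178) in complex III, Cox4i1 (482) and Cox6a1 (290) in complex IV, and Atp5b (469) and Atp5a1 (413) in complex V. Ndufa1 and Ndufa3 are small accessory proteins of the membrane arm, Uqcrc1 is a core protein on the matrix side, and Atp5b and Atp5a1 form the catalytic head. The order was not the same in every group. In Pim1-/- oxLDL, Uqcrq (263 TPM on average) was above Uqcrc1 in each library and Atp5g3 (282 TPM) was above Atp5a1, whereas in WT PBS Atp5a1 (670 TPM) was above Atp5b (535 TPM) on average. The assembly factors were far lower, with means of 1.9 TPM for Ndufaf5, 3.87 for Ndufaf4, 4.75 for Ndufaf6, 6.29 for Ndufaf7, 8.93 for Ndufaf1, 13.2 for Ndufaf3 and 14.2 for Ndufaf2. Assembly factors act on the complex while it is built and are not part of the finished enzyme.

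All 83 genes together took up 0.93%, 1.44% and 1.18% of all TPM in the Pim1-/- oxLDL libraries, 0.342%, 0.915% and 0.371% in WT oxLDL, 1.74%, 0.601% and 1.08% in Pim1-/- PBS, and 0.528%, 0.477% and 0.906% in WT PBS. The Pim1-/- oxLDL libraries were all above the WT oxLDL libraries by this measure, although WT oxLDL 2 came close to the lowest of them. In bulk RNA, fewer cells of a type and less RNA per cell cannot be told apart. The 2 PBS groups overlapped, since Pim1-/- PBS 2 lay below WT PBS 3. Per-library shares of this kind add genes of very different level, so each gene was also expressed as its deviation from its own mean of log2(TPM + 1) over the 12 libraries.

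The median deviation of the 83 genes was 0.43, 1.14 and 0.77 in Pim1-/- oxLDL, -1.09, 0.34 and -1.61 in WT oxLDL, 1.43, -0.42 and 0.56 in Pim1-/- PBS, and -0.66, -0.71 and 0.17 in WT PBS. Ribosomal protein genes, which are as short (median transcript 791 bases, against 806.75 for the genes described here and 2702 for all tested genes), gave 0.57, 1.28 and 0.88 in Pim1-/- oxLDL, -1.71, 0.47 and -1.77 in WT oxLDL, 1.69, -0.63 and 0.48 in Pim1-/- PBS, and -0.84, -0.94 and 0.53 in WT PBS. In each library the 2 lists therefore lay on the same side of 0. The medians of all tested genes did not follow this order and ran from -0.48 in WT oxLDL 1 to 0.67 in WT PBS 2. Of the 83 genes, 51 had their highest value in Pim1-/- PBS 1, while 40 had their lowest in WT oxLDL 3 and 19 in WT oxLDL 1.

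**Figure D1:**
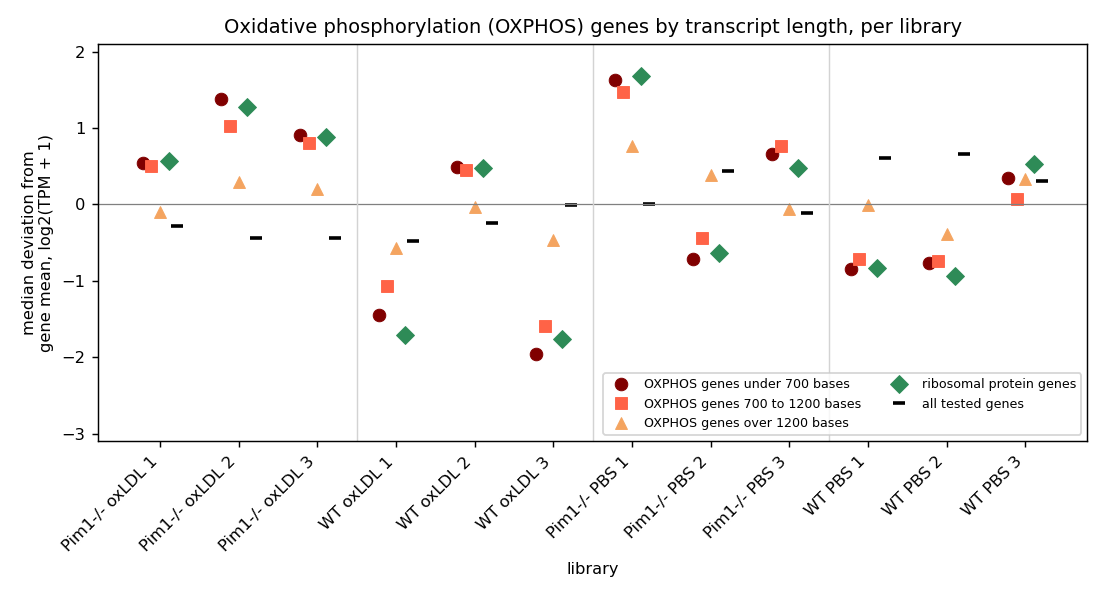
Median deviation from each gene's mean of log2(TPM + 1), per library (horizontal axis, by group), for oxidative phosphorylation genes in 3 classes of transcript length, for ribosomal protein genes and for all tested genes. The shorter classes move with the ribosomal protein genes, between -1.95 and 1.63 for transcripts under 700 bases, and genes over 1200 bases stay between -0.58 and 0.76.

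Genes with short and long transcripts behaved differently across the libraries. The 33 genes with transcripts under 700 bases had median deviations of 0.54 to 1.38 in Pim1-/- oxLDL, -1.95 to 0.49 in WT oxLDL, -0.71 to 1.63 in Pim1-/- PBS and -0.85 to 0.34 in WT PBS. The 24 genes over 1200 bases ranged only from -0.58 in WT oxLDL 1 to 0.76 in Pim1-/- PBS 1. As a measure of likeness, Pearson's r of each gene with the median of the 83 genes over the 12 libraries exceeded 0.9 for 46 genes and was below 0 for 7. The libraries are shared by all genes, and each gene is part of that median, so this is a description of how they varied together. These included Atp5a1, Ndufs1, Uqcrc2, Atp5b, Uqcrc1 and Atp5s, named after their values were seen, and all 7 had transcripts of 1485 to 2661 bases. Atp5a1 and Atp5b form the catalytic head of the ATP synthase, Uqcrc1 and Uqcrc2 are the core proteins of complex III, and Ndufs1 is the largest subunit of complex I.

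**Figure D2:**
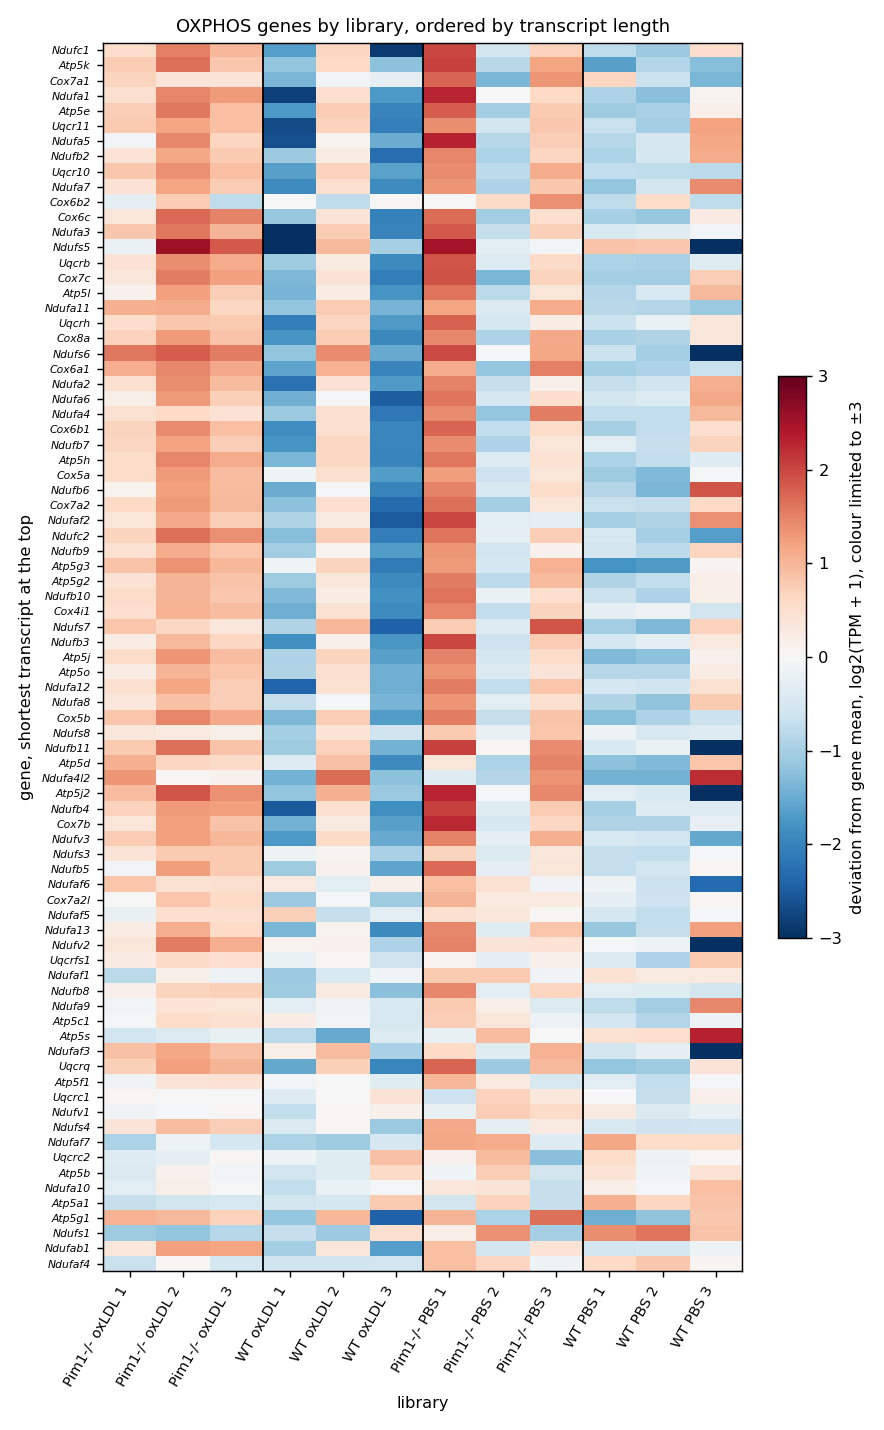
Each row is 1 of 81 of the 82 oxidative phosphorylation genes with a known transcript length, shortest at the top, and each column is a library, grouped by genotype and treatment. Colour gives the deviation from the gene's mean of log2(TPM + 1), limited to 3 on either side. The short genes form vertical bands that follow single libraries, which fade towards the long genes at the bottom.

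Atp5a1 and Cox4i1 show the contrast gene by gene. Atp5a1, the alpha subunit of the ATP synthase with a transcript of 2471 bases, stood at 226, 251 and 261 TPM in Pim1-/- oxLDL, 251, 256 and 631 TPM in WT oxLDL, 249, 597 and 225 TPM in Pim1-/- PBS, and 767, 574 and 669 TPM in WT PBS. Cox4i1, with a transcript of 755 bases, stood at 555, 812 and 748 TPM in Pim1-/- oxLDL, 141, 536 and 105 TPM in WT oxLDL, 1090, 236 and 619 TPM in Pim1-/- PBS, and 327, 354 and 266 TPM in WT PBS. Libraries WT oxLDL 3 and Pim1-/- PBS 2 were the highest of their groups for Atp5a1 and the lowest for Cox4i1. Atp5b, the partner of Atp5a1, had its highest value of WT oxLDL (665 TPM) and of Pim1-/- PBS (743 TPM) in the same 2 libraries.

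Summed by complex, complex IV ran over the widest range. Its 13 genes summed to 2800, 4500 and 3690 TPM in Pim1-/- oxLDL, 724, 2740 and 469 TPM in WT oxLDL, 5340, 966 and 3400 TPM in Pim1-/- PBS, and 1050, 1100 and 1980 TPM in WT PBS. The core subunits of complex I summed to 417, 470 and 433 TPM in Pim1-/- oxLDL, 248, 429 and 319 TPM in WT oxLDL, 517, 505 and 638 TPM in Pim1-/- PBS, and 389, 334 and 510 TPM in WT PBS. The genes of complex IV have a median transcript of 610 bases and the core genes of complex I one of 1312 bases. Complex V was intermediate in its range. It summed to 2680 to 3960 TPM in Pim1-/- oxLDL and 1420 to 2700 TPM in WT oxLDL. In PBS it summed to 2380 to 4470 TPM in Pim1-/- and 1730 to 2940 TPM in WT. Its sum was above that of complex IV in each WT PBS library, in WT oxLDL 1, WT oxLDL 3 and Pim1-/- PBS 2, and below it in the rest.

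Many of these genes are known targets of the transcription factor NRF1, of ETS-family factors such as GABP, and of YY1, which gave a reason to look at their promoters. A window of 250 bases before to 50 bases after the annotated start (RefSeq, GRCm38.p6) was at hand for 71 of the 83 genes. The NRF1 motif, GCGCA, any base and GCGC in a row, searched on both strands like the other motifs, occurred in 16 of them (22.5%), against 10.6% of the windows of 9837 tested genes, 19.1% of those of mitochondrial ribosomal protein genes and 8.33% of those of ribosomal protein genes. The YY1 motif AAGATGGCG occurred in 7 (9.86%, against 3.35% of tested genes, 11.8% of mitochondrial ribosomal and 6.67% of ribosomal protein genes). The ETS motif CCGGAAGT occurred in 5 (7.04%, against 8.69%, 16.2% and 20.0% of the same lists) and the ERR motif TCAAGGTCA in 1 (1.41%, against 0.244%). At least 1 of the NRF1, ETS and YY1 motifs was found in 26 windows (36.6%), against 21.1% of tested genes, 44.1% of mitochondrial ribosomal and 31.7% of ribosomal protein genes. A match describes letters in the window and not a bound site. For each complex, among the genes with a window, that of the most abundant gene with an NRF1, ETS or YY1 match is shown. Matches are in capitals. Some more abundant genes, such as Ndufa1 and Ndufa3 in complex I and Atp5b in complex V, held none. Cox4i1 in complex IV and Atp5a1 in complex V were also more abundant than the genes shown, but had no window and were not searched. The windows shown hold NRF1 in Uqcrc1 (complex III), Cox6a1 (complex IV) and Atp5g2 (complex V), and YY1 in Ndufs7 (complex I). They lie at chr10:80249199-80249498 on the plus strand (Ndufs7), chr9:108936398-108936697 on the plus strand (Uqcrc1), chr5:115348909-115349208 on the minus strand (Cox6a1) and chr15:102670998-102671297 on the minus strand (Atp5g2), and each is written 5′ to 3′ along the gene.
Ndufs7: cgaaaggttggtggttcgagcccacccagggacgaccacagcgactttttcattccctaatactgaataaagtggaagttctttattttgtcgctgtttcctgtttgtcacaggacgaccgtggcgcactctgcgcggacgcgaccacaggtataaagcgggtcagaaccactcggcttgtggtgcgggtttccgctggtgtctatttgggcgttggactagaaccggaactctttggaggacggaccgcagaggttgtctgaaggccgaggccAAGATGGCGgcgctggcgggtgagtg
Uqcrc1: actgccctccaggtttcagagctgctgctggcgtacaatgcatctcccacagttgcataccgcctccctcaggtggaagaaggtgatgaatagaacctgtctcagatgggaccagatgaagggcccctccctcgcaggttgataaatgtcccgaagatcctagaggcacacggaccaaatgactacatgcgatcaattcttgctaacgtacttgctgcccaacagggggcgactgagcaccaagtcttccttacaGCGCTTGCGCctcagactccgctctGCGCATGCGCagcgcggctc
Cox6a1: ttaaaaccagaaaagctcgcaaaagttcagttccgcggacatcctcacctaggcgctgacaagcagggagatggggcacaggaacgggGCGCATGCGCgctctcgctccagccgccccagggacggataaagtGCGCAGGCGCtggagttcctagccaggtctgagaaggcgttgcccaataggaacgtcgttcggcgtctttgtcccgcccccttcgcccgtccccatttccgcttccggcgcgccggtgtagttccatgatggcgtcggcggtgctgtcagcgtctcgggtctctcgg
Atp5g2: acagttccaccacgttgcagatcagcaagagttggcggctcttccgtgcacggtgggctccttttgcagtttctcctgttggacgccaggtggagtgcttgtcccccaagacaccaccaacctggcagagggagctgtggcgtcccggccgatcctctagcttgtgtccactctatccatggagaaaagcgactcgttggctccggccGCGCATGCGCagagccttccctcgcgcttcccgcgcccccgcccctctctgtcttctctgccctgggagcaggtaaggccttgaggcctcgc
Uqcrc1 holds 2 NRF1 matches next to its start and Cox6a1 holds 2 further upstream. Their levels over the libraries did not run alike, since Cox6a1 followed the median of the 83 genes and Uqcrc1 did not.

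The response of WT cells to oxLDL was compared first. Scavenger receptors let macrophages engulf oxLDL without the feedback that limits uptake of native LDL. None of the 83 genes rose and 3 fell in WT oxLDL against WT PBS (limma, Benjamini-Hochberg adjusted p under 0.05 over all tested genes), where 5.83% of all tested genes rose and 27.0% fell. The median change of the 83 genes was -0.35 on the log2(TPM + 1) scale, with a median standard error (SE) of 0.63 for a single gene, against -0.70 for all tested genes and -0.61 for ribosomal protein genes. The sign of that median depends on how libraries are scaled, since it was 0.42 after scaling to the median gene, 0.13 after quantile normalization and 0.24 after scaling to ribosomal protein genes.

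The 3 genes that fell were Ndufs1, Ndufaf7 and Atp5s. Ndufs1, the largest subunit of complex I and a carrier of iron-sulphur clusters, stood at 24.3, 18.2 and 56.0 TPM in WT oxLDL and 107, 124 and 73.3 TPM in WT PBS, without overlap. Its log2 change was -1.73 (SE 0.55, adjusted p = 0.0274, limma). Ndufaf7, a methyltransferase that acts in the assembly of complex I, as known from human cells, stood at 2.2, 1.95 and 3.34 TPM in WT oxLDL and 12.8, 8.04 and 8.14 TPM in WT PBS. Its change was -1.60 (SE 0.46, adjusted p = 0.0178, limma).

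Atp5s stood at 1.41, 0.489 and 2.2 TPM in WT oxLDL and 4.87, 5.01 and 20.2 TPM in WT PBS. Its change was -2.01 (SE 0.53, adjusted p = 0.0111, limma), and -1.40 (adjusted p = 0.0196) without WT PBS 3, the library with the value of 20.2. The calls of all 3 were lost after scaling to the median gene, at adjusted p of 0.15 for Ndufs1, 0.162 for Ndufaf7 and 0.118 for Atp5s (limma), where the median over all genes moved to 0.07. Without WT PBS 3 and WT oxLDL 2 the calls of Ndufs1 and Atp5s were lost, and the 4 genes that fell were Ndufaf7, Ndufaf4, Ndufa3 and Ndufs5, while 25.4% of all genes fell. Without WT oxLDL 2 alone none of the 3 was called, and Ndufa3, Ndufa6, Uqcr11 and Uqcrh fell instead, while 15.9% of all tested genes fell. Leaving out WT PBS 1 or WT oxLDL 1 each left 1 gene, Atp5s, where 18.3% and 16.0% of all tested genes fell.

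By complex, the median log2 changes in WT oxLDL against WT PBS were -0.07 for the core subunits of complex I, -0.66 for its accessory subunits, -0.86 for its assembly factors, -0.11 for complex III, -0.31 for complex IV and -0.13 for complex V. Spread within each was wide: the accessory subunits alone ran from -1.38 to 1.82. The highest values came from genes such as Ndufs6, which WT PBS 3 listed at 0. Groups were free of overlap for 6 genes, all lower in oxLDL (Atp5s, Ndufa10, Ndufaf1, Ndufaf4, Ndufaf7 and Ndufs1), against 34.7% of all tested genes lower and 7.95% higher without overlap. With WT PBS 3 and WT oxLDL 2 left out, 55 genes were lower and 4 higher without overlap, against 59.6% and 11.3% of all tested genes.

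In Pim1-/- cells, oxLDL moved none of the 83 genes past the threshold in either direction, and 2 had an unadjusted p under 0.05 (limma). None was called without WT PBS 3 and WT oxLDL 2 either, where 5.33% of all tested genes rose and 12.5% fell. With all 12 libraries 4.45% of all tested genes rose and 7.8% fell. The median change of the 83 genes was 0.25, against -0.50 for all tested genes and 0.39 for ribosomal protein genes, and it became -0.15 after scaling to ribosomal protein genes. It was -0.22 without Pim1-/- PBS 2 and 0.70 without Pim1-/- PBS 1, so 1 library turned its sign. The smallest p-values belonged to Ndufaf7, Ndufs1 and Ndufaf4, the last known to be needed for the assembly of complex I.

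Ndufaf7 stood at 2.23, 4.6 and 3.26 TPM in Pim1-/- oxLDL and 12.9, 12.3 and 3.75 TPM in Pim1-/- PBS, a change of -1.17 (SE 0.46, adjusted p = 0.117, limma). Ndufs1 stood at 18.8, 17.2 and 21.6 TPM in Pim1-/- oxLDL and 46.2, 106 and 19.8 TPM in Pim1-/- PBS, a change of -1.23 (SE 0.55, adjusted p = 0.16, limma). Ndufaf4 stood at 1.83, 3.66 and 2.14 TPM in Pim1-/- oxLDL and 7.4, 6.07 and 3.06 TPM in Pim1-/- PBS, a change of -0.85 (SE 0.40, adjusted p = 0.186, limma). Groups were free of overlap in 1 of the 83 genes, Uqcrfs1, the Rieske iron-sulphur protein of complex III, which was higher in oxLDL, against 8.54% of all tested genes higher and 29.6% lower. In each of the 3 genes with the smallest p, Pim1-/- PBS 3 overlapped the oxLDL libraries. Without it Ndufaf7 (adjusted p = 0.0218, limma) and Ndufs1 (adjusted p = 0.0337, limma) fell, and no other gene of the 83 was called, where 9.85% of all tested genes fell.

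**Figure D3:**
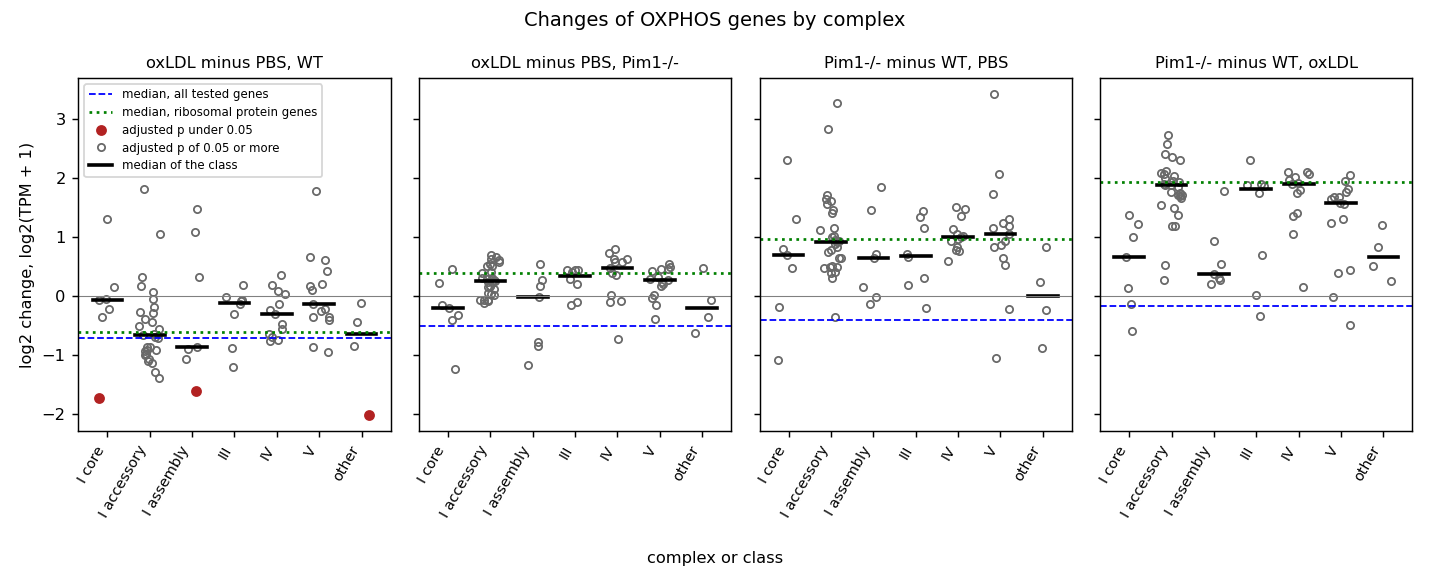
Log2 change of each oxidative phosphorylation gene (circles) by complex or class in 4 comparisons, with the class median as a black bar, the median of all tested genes dashed and that of ribosomal protein genes dotted. Filled circles mark the 3 genes called in WT oxLDL against WT PBS, and in oxLDL the classes of complex IV and of the accessory subunits of complex I sit at 1.90 and 1.89 for Pim1-/- minus WT, beside 1.93 for ribosomal protein genes.

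The genotypes were then compared under oxLDL. Of the 83 genes, 78 had a positive change in Pim1-/- oxLDL against WT oxLDL, with a median of 1.67, against -0.17 for all tested genes and 1.93 for ribosomal protein genes. None was called (limma), while 50 had an unadjusted p under 0.05, and only 0.00794% of all tested genes, a single gene, were called. In 39 of the 83 genes every Pim1-/- oxLDL library was above every WT oxLDL library, against 6.88% of all tested genes, and none showed the opposite, against 13.0%. Of the 81 ribosomal protein genes 55 did so. Without WT PBS 3 and WT oxLDL 2, 67 of the 83 genes were higher without overlap and 1 lower, against 16.5% and 20.5% of all tested genes.

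Markers of other cell types also varied between these groups. The 4 neutrophil markers of 5 that the table holds summed to 47.4, 143 and 112 TPM in Pim1-/- oxLDL and 28.9, 61.9 and 19.6 TPM in WT oxLDL, nearly all of it S100a8, while S100a9 was listed at 0 in all 3 Pim1-/- oxLDL libraries. B cell markers summed to 9.71 to 11.1 TPM in Pim1-/- oxLDL and 3.18 to 7.2 TPM in WT oxLDL, and mesothelial markers to 2.13 to 3.26 TPM in Pim1-/- oxLDL and 3.57 to 12.0 TPM in WT oxLDL. Fibroblast markers overlapped, at 332 to 765 TPM in Pim1-/- oxLDL and 244 to 728 TPM in WT oxLDL. Their part in the result was not tested.

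The medians differed by complex. Accessory subunits of complex I had a median change of 1.89 and complex IV one of 1.90, complex III reached 1.81 and complex V 1.58, and the core subunits of complex I stood at 0.67 and the assembly factors at 0.37. All 29 accessory subunits and all 13 genes of complex IV had positive changes, but 5 of 7 core subunits, 13 of 15 genes of complex V and 7 of 8 of complex III did.

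Ndufb4, an accessory subunit of the membrane arm, had the smallest p. It stood at 68.4, 104 and 101 TPM in Pim1-/- oxLDL and 6.56, 59.2 and 11.0 TPM in WT oxLDL, a change of 2.36 (SE 0.69, adjusted p = 0.36, limma). Ndufab1, the mitochondrial acyl carrier protein, stood at 53.0, 98.7 and 95.2 TPM in Pim1-/- oxLDL and 19.8, 52.8 and 12.4 TPM in WT oxLDL, a change of 1.71 (SE 0.52, adjusted p = 0.36, limma). Ndufa3 stood at 170, 290 and 197 TPM in Pim1-/- oxLDL and 10.5, 165 and 23.6 TPM in WT oxLDL, a change of 2.57 (SE 0.79, adjusted p = 0.36, limma). In each, WT oxLDL 2 came close to the lowest Pim1-/- library and the other WT libraries lay far below.

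The most abundant genes of complexes I and IV had the same layout. Ndufa1 stood at 185, 369 and 324 TPM in Pim1-/- oxLDL and 18.2, 188 and 39.6 TPM in WT oxLDL, so its groups overlapped by a narrow margin. Cox6a1 stood at 439, 565 and 454 TPM in Pim1-/- oxLDL and 67.7, 429 and 51.6 TPM in WT oxLDL, without overlap. The changes were 2.41 (SE 0.75) for Ndufa1, 2.06 (SE 0.74) for Cox6a1 and 1.80 (SE 0.61) for Cox4i1, each at an adjusted p of 0.36 (limma). In Uqcrc1 the groups overlapped, at 191, 184 and 184 TPM in Pim1-/- oxLDL and 139, 183 and 246 TPM in WT oxLDL, while Uqcrq, a small subunit of the same complex, stood at 214, 307 and 267 TPM in Pim1-/- oxLDL and 44.8, 216 and 33 TPM in WT oxLDL.

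**Figure D4:**
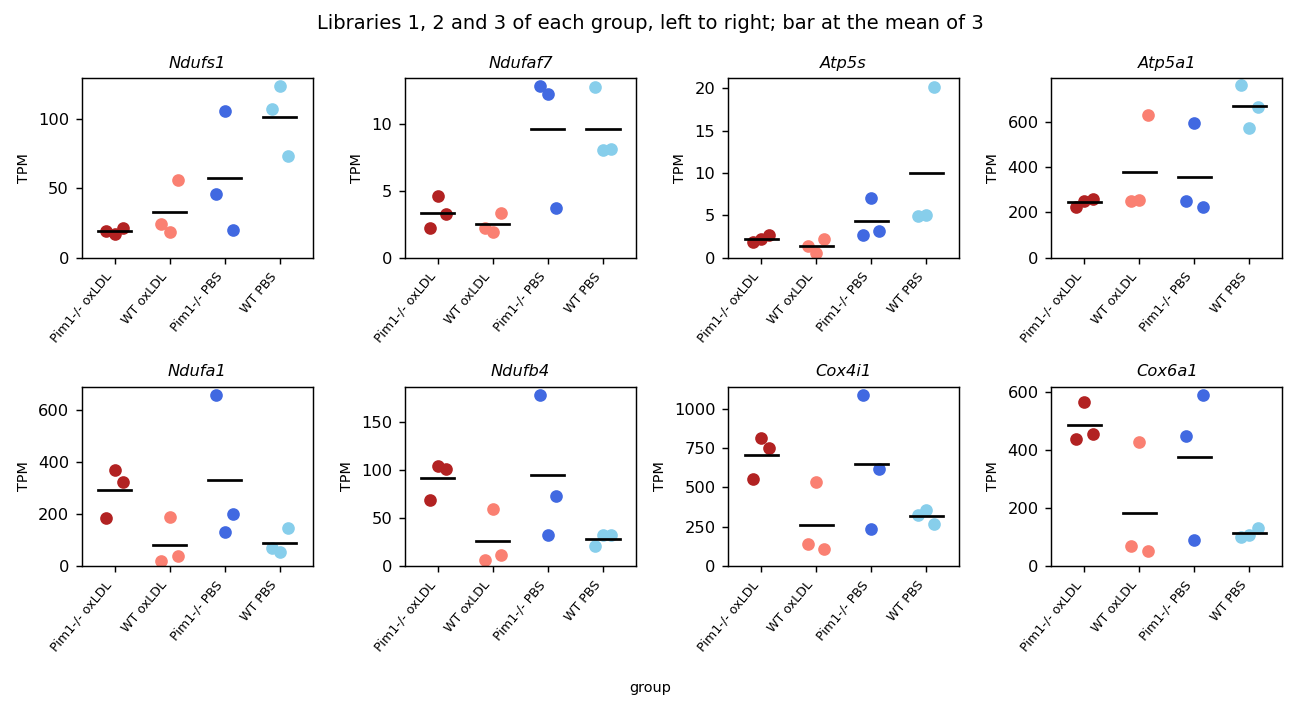
TPM of 8 genes in the 3 libraries of each group, with a bar at the group mean. In the long genes Ndufs1 and Atp5a1 the highest library is one of WT PBS, at 124 TPM and 767 TPM, while in Ndufa1, Ndufb4, Cox4i1 and Cox6a1 single libraries of WT oxLDL and Pim1-/- PBS lie apart from the rest of their group.

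The calls under oxLDL depended on 1 library. Without WT oxLDL 2, 24 of the 83 genes were higher in Pim1-/- oxLDL and none was lower (limma), against 1.41% of all tested genes higher. In the same fit 39 of the 81 ribosomal protein genes were called higher. These 24 were 13 accessory subunits of complex I, 4 subunits of complex III, 5 of complex IV and 2 of complex V, and all but Ndufab1 have transcripts of at most 1037.5 bases. Ndufa3 then stood at a change of 3.67 (SE 0.62, adjusted p = 0.018, limma). Without WT PBS 3 as well the count was 47 of the 83 genes, beside 66 of the 81 ribosomal protein genes and 3.87% of all genes. Scaling to ribosomal protein genes gave a median change of -0.24 for the 83 genes, turned Ndufab1 (-0.21) and Cox4i1 (-0.12) round, and left none called. With that scaling 0.183% of all tested genes were called, all of them lower.

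Transcript length was set beside this difference, because short genes outside the list shifted between libraries as well. They did not follow the genes described here in every library. In WT PBS 3 the median deviation under 700 bases was 0.34 for the genes described here and -0.52 for other tested genes. Among genes under 700 bases the median change in Pim1-/- oxLDL against WT oxLDL was 1.95 for 33 genes described here and 1.02 for 309 other tested genes. Between 700 and 1200 bases it was 1.58 for 25 genes and 0.67 for 988 others, and over 1200 bases 0.42 for 24 genes and -0.13 for 6493 others of up to 3632 bases. Across the 82 genes with a known length, the change went down by 0.68 per doubling of length (Pearson -0.70 across genes, which are not independent). After a trend with length and GC content was taken out of each library, the median of the 83 genes was 0.58. It was -0.01 for all tested genes and 0.93 for ribosomal protein genes. No tested gene at all was called in that fit (limma), and so none of the 83.

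**Figure D5:**
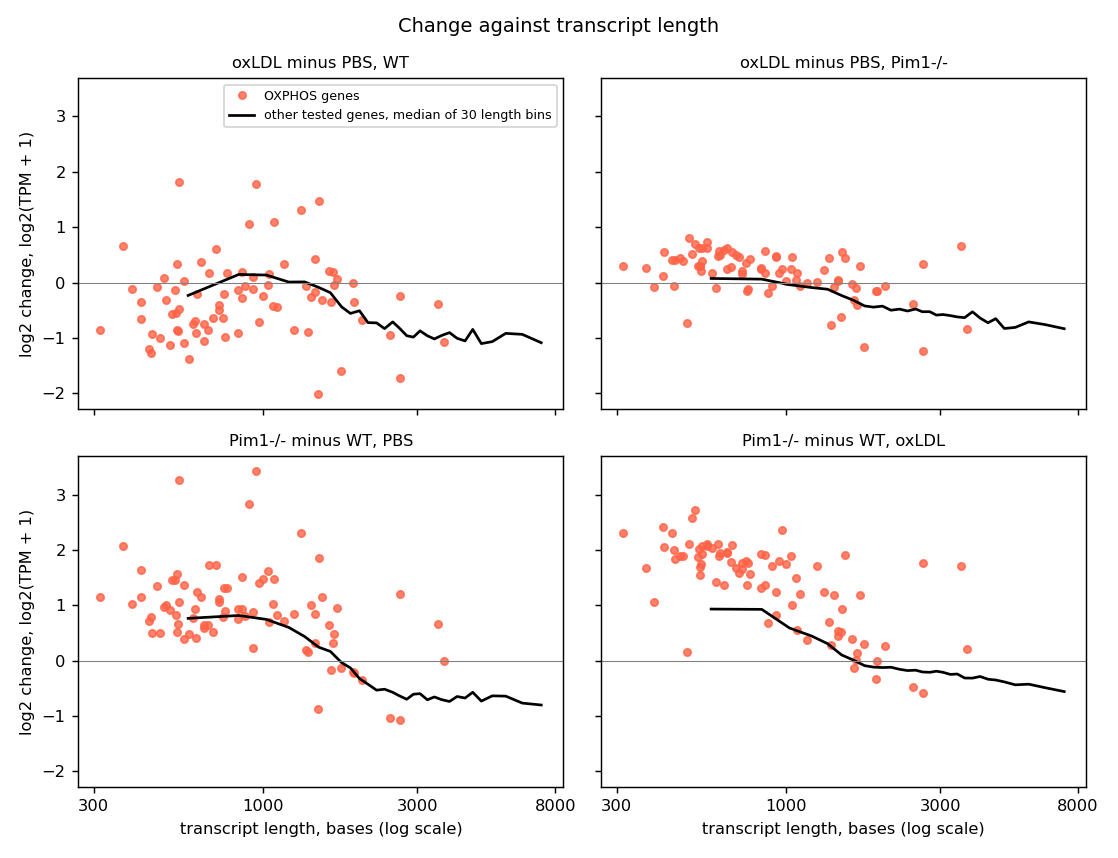
Log2 change against transcript length (log scale) for the oxidative phosphorylation genes (points) and the median of other tested genes, ribosomal protein genes left out, in 30 bins of length (line), in 4 comparisons. In oxLDL the short genes lie near 2 for Pim1-/- minus WT, above the line, and in PBS they lie close to the line.

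In PBS most of the changes between genotypes were positive as well, but none was called. The median change of the 83 genes in Pim1-/- PBS against WT PBS was 0.87, against -0.41 for all tested genes and 0.98 for ribosomal protein genes, and 73 of the 83 changes were positive. By limma, 18 had an unadjusted p under 0.05, and 4.67% of all tested genes were called, 0.611% higher and 4.06% lower. Groups were free of overlap in 14 genes, all higher in Pim1-/-, against 6.62% of all tested genes higher and 21.1% lower. Leaving out WT PBS 3 and WT oxLDL 2 gave 40 genes higher and 1 lower, against 12.6% and 41.2%. With the trend in length and GC content removed the median was 0.09, and after scaling to ribosomal protein genes it was -0.05. By length the median was 0.97 under 700 bases, against 0.79 for other tested genes, 1.02 against 0.74 between 700 and 1200 bases, and 0.31 against -0.36 over 1200 bases. Fibroblast markers summed to 449, 741 and 1370 TPM in Pim1-/- PBS and 199, 436 and 237 TPM in WT PBS, without overlap. Most of that sum was Col1a1, at 336, 580 and 1230 TPM in Pim1-/- PBS and 154, 323 and 186 TPM in WT PBS. Col3a1 and Dcn, the rest of the list, overlapped between the groups. Mesothelial markers summed to 6.5 to 9.64 TPM in Pim1-/- PBS and 9.96 to 28.3 TPM in WT PBS. Neutrophil markers summed to 81.8, 13.9 and 27.5 TPM in Pim1-/- PBS and 8.94, 10.4 and 58.8 TPM in WT PBS. Their part in the result was not tested.

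The smallest p-values belonged to Ndufs6, Atp5k and Ndufb11. Ndufs6, a zinc-binding accessory subunit of complex I, stood at 132, 31.3 and 74.3 TPM in Pim1-/- PBS and at 20.6, 15.7 and 0 TPM in WT PBS. Its change was 3.27 (SE 1.00, adjusted p = 0.0712, limma), and 1.85 (adjusted p = 0.115) without WT PBS 3, which lists it at 0. Ndufb11, an accessory subunit of the membrane arm, stood at 83.0, 20.0 and 52.9 TPM in Pim1-/- PBS and at 13.8, 16.7 and 0 TPM in WT PBS. Its change was 2.84 (SE 0.92, adjusted p = 0.0837, limma), and 1.5 (adjusted p = 0.133) without WT PBS 3. Atp5k, subunit e of the ATP synthase, stood at 298, 39.9 and 165 TPM in Pim1-/- PBS and 22.4, 38.3 and 29.0 TPM in WT PBS. Its change was 2.07 (SE 0.66, adjusted p = 0.0808, limma).

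Pim1-/- PBS 2 lay nearest to WT PBS in these 3 genes. Without it 10 of the 83 genes were higher and 2 lower in Pim1-/- PBS (limma), against 2.22% of all genes higher and 11.0% lower. The 10 included Ndufs6, Ndufb11 and Atp5k with Cox5b, Cox7b and Uqcrb, and the 2 lower ones were the long genes Atp5a1 (-1.49) and Ndufs1 (-1.67). Without WT PBS 3 and WT oxLDL 2 the count was 2, Atp5g3 and Ndufs6, both higher, where 1.29% of all tested genes were higher and 7.95% lower.

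The difference between the 2 oxLDL responses was tested in the same model. None of the 83 genes passed, none had an unadjusted p under 0.05, and 0.00794% of all tested genes were called (limma). The median difference, Pim1-/- minus WT, was 0.50, against 0.23 for all tested genes and 0.95 for ribosomal protein genes. It was 0.10 after quantile normalization and turned to -0.485 after scaling to ribosomal protein genes. The smallest p-values belonged to Atp5s (1.38, SE 0.75), Ndufa2 (1.72, SE 1.00) and Ndufa6 (1.55, SE 0.94), each at an adjusted p of 0.986 (limma). The comparisons of the 2 oxLDL responses and of the genotypes share their libraries, so these values are not independent of those above.

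Genes that feed or build the chain were taken from fixed lists. Of complex II and cytochrome c (6 genes), Sdha fell in WT oxLDL. Sdha, the flavoprotein of complex II, stood at 55.5, 63.4 and 209 TPM in WT oxLDL and 384, 390 and 260 TPM in WT PBS, a change of -1.90 (SE 0.55, adjusted p = 0.0177, limma). Cycs, cytochrome c, stood at 47.2, 51.2 and 24.4 TPM in WT oxLDL and 12.9, 13.1 and 37.2 TPM in WT PBS, a change of 1.03 (SE 0.52, adjusted p = 0.137, limma), and 1.51 (adjusted p = 0.0312) without WT PBS 3. Scaling to the median gene took away the call of Sdha (adjusted p = 0.0911) and gave one to Cycs (adjusted p = 0.0461). None of the 6 was called without WT PBS 3 and WT oxLDL 2.

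Among 33 further assembly factors 1 rose (3.03%) and 4 fell (12.1%) in WT oxLDL, where 5.83% of all tested genes rose and 27.0% fell. With WT PBS 3 and WT oxLDL 2 left out, 1 rose and 5 fell, where 4.89% of all tested genes rose and 25.4% fell. Tmem126b, of the complex that assembles the membrane arm of complex I, stood at 10.7, 11.6 and 13.3 TPM in WT oxLDL and 62.7, 62.9 and 114 TPM in WT PBS, a change of -2.60 (SE 0.44, adjusted p = 0.000773, limma). Cox18, which inserts a subunit of complex IV into the membrane, stood at 15.5, 18.4 and 11.6 TPM in WT oxLDL and 4.29, 4.26 and 0 TPM in WT PBS, a change of 2.39 (SE 0.57, adjusted p = 0.00674, limma). The 0 for Cox18 belongs to WT PBS 3, and its change ran from 1.593 to 2.795 with 1 library left out. Tmem126b and Cox18 both kept their direction and their call under every alternative tried except scaling to ribosomal protein genes.

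Of 16 enzymes of the TCA cycle 4 fell and none rose, of 14 genes of electron entry and carriers 2 fell and none rose, and of 14 regulators of mitochondrial biogenesis 4 fell and none rose in WT oxLDL, beside the 27.0% of all tested genes that fell. Ogdh of the 2-oxoglutarate dehydrogenase complex stood at 23.2, 33.5 and 65.2 TPM in WT oxLDL and 160, 129 and 114 TPM in WT PBS (change -1.82, adjusted p = 0.00697, limma). Suclg2, a subunit of succinyl-CoA ligase, changed by -2.0 (adjusted p = 0.012, limma). Nnt, the proton-driven transhydrogenase, stood at 2.17, 4.93 and 10.3 TPM in WT oxLDL and 24.1, 31 and 27.4 TPM in WT PBS (change -2.25, adjusted p = 0.00341, limma), and Ucp2, a carrier of the inner membrane, changed by -1.27 (adjusted p = 0.0304, limma). Of the regulators, Tfb2m, a mitochondrial transcription factor, changed by -2.34 (adjusted p = 0.0164, limma) and Hcfc1, a transcriptional coregulator, by -1.28 (adjusted p = 0.0256, limma). Scaling to the median gene kept the calls of Ogdh and Nnt and lost those of Suclg2, Ucp2, Tfb2m and Hcfc1. Without WT PBS 3 and WT oxLDL 2, 2 enzymes of the TCA cycle (Ogdh and Suclg2), 2 genes of electron entry and carriers (Nnt and Etfb) and 2 regulators (Ppargc1a and Ppargc1b) fell and none rose. Of all tested genes 25.4% fell and 4.89% rose there.

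In Pim1-/- cells none of the genes on these lists was called for oxLDL, where 12.2% of all tested genes were called. Once WT PBS 3 and WT oxLDL 2 were left out, Cycs and Cox18 rose and Tmem126b, Pet117, Ppargc1a and Yy1 fell there, while 5.33% of all tested genes rose and 12.5% fell. Between genotypes in PBS 2 were lower in Pim1-/-, where 4.06% of all tested genes were lower, named after their values were seen. Esrra, the nuclear receptor ERR alpha, stood at 9.02, 11.0 and 14.1 TPM in Pim1-/- PBS and 45.7, 39.0 and 48.2 TPM in WT PBS, a change of -1.89 (adjusted p = 0.0427, limma). Ttc19, an assembly factor of complex III, stood at 3.0, 2.12 and 0.489 TPM in Pim1-/- PBS and 6.61, 10.3 and 12.0 TPM in WT PBS, a change of -1.97 (adjusted p = 0.0336, limma). Neither call held after scaling to the median gene, at adjusted p of 0.112 for Esrra and 0.0846 for Ttc19 (limma), and single libraries also decided them. Without Pim1-/- PBS 1 the adjusted p of Esrra was 0.128, and without Pim1-/- PBS 3 that of Ttc19 was 0.142 (limma). The genes called in PBS without WT PBS 3 and WT oxLDL 2 were Esrra, Ttc19 and Yy1, all lower, against 7.95% of all tested genes. No gene on these lists was called between genotypes in oxLDL. Without the same 2 libraries 7 assembly factors (Coa3, Cox14, Cox17, Cox20, Sco2, Uqcc2 and Uqcc3) and Etfb were higher in Pim1-/- oxLDL, and Esrra and Yy1 lower, against 3.87% of all tested genes higher and 2.69% lower.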

How the data were processed

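RNA levels of 12 libraries were read from 1 table of TPM (length-corrected transcript abundance) per gene that the authors deposited. Salmon and the build mm10 were used, per the submitters' processing notes, without versions; the gene annotation is not given in the sources used here. The values are scaled to a fixed total per library and keep no depth, so depth is unknown and no count model was run. Values were analysed as log2(TPM + 1), which understates changes of low genes. Genes at 1 TPM or more in at least 3 libraries were tested (12594 of 24279 rows). A model of 4 group means over all libraries was fitted with limma 3.58.1 (R 4.3.3, empirical Bayes with an intensity trend), which leaves 8 residual degrees of freedom, and the threshold was an adjusted p of 0.05 (Benjamini-Hochberg, over all tested genes). Transcript lengths came from GENCODE M21, as the median over the transcripts of a gene with a RefSeq match. Promoter sequences came from RefSeq (GRCm38.p6). The fit was tested on simulated data. The members, lists and tests were chosen with earlier results of these data known.

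Named genes are the 2 most abundant members of each complex, the called members, the 3 members with the smallest p in a comparison without calls, the tissue isoforms, the complex I assembly factors, the 2 genes with the smallest p of each further list (oxLDL in WT) and the genes beside the TPM threshold. Others were chosen after their values were seen. The results of 1 member are not reported here by name. Alternatives were other library scalings (median, quantile, ribosomal protein genes), removal of a trend with length and GC content, rescaling without the ribosomal RNA rows Rn45s and Mir6236, other filters and pseudocount, no intensity trend, a fit of just the groups compared, leaving out libraries and a replicate block. The labels name no batch and no animal or culture of origin, so p-values measure only the spread between these libraries, which may be technical.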

Additional observations from a re-analysis of the deposited data

How the results depend on the processing

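The count of called genes was recomputed under each alternative for each comparison, apart from a fit of the compared groups alone for the difference of the responses, which uses all 4 groups. For oxLDL in WT it was 3, and it was 1 after median scaling (Ndufaf6, higher), 2 after quantile normalization (Ndufaf3 and Ndufaf6, both higher), 3 with the length and GC trend removed (Ndufa6 in place of Ndufs1), 0 after scaling to ribosomal protein genes, and 1 to 4 with 1 library left out. Of all tested genes 32.8% were called as first fitted, 21.2% after median scaling and 21.1% after quantile normalization. The share was 24.6% with the trend removed, 2.01% after scaling to ribosomal protein genes and 20.6% to 40.6% with 1 library left out. For oxLDL in Pim1-/- the count was 0 (12.2% of all tested genes), and 0 to 2 with 1 library left out (5.46% to 18.3%). For the genotypes in PBS the count was 0 (4.67% of all tested genes), and 3 after quantile normalization (4.88%). It was 2 without WT PBS 3 and WT oxLDL 2 (9.24%), and 0 to 12 with 1 library left out (0.0159% to 13.3%). For the genotypes in oxLDL the count was 0 (0.00794% of all tested genes). It was 47 without those 2 libraries (6.57%), and 0 to 24 with 1 library left out (0.00794% to 2.52%). The difference of the responses gave 0 in each alternative run. Scaling to ribosomal protein genes and leaving out the 2 libraries together were chosen after the data had been seen. The median change of the 83 genes minus that of all tested genes turned negative for oxLDL in WT with the length and GC trend removed (-0.30), without a filter (-0.10) and without WT oxLDL 2 (-0.21), with a range of -0.21 to 0.74 when 1 library was left out, and for the difference of the responses without WT PBS 3 (-0.07), WT oxLDL 3 (-0.11) or Pim1-/- PBS 2 (-0.18), with a range of -0.18 to 0.80. Under scaling to ribosomal protein genes Ndufab1 (-0.21) and Cox4i1 (-0.12) turned round for Pim1-/- against WT in oxLDL. The cause was not tested.

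Libraries of the same replicate number did not deviate together (correlations of -0.521 to 0.165), so the numbers were not taken to pair them. With the replicate number as a block the count was 3 for oxLDL in WT, where 28.0% of all tested genes were called, and 0 in the other comparisons. TPM keep no depth, so what depth limits cannot be said.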
